A study of Drosophila melanogaster with 6 samples.

Results

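The mitochondrial ribosome of Drosophila melanogaster was examined through 72 nuclear genes that encode its proteins, 46 of the large subunit and 26 of the small subunit, of 13690 genes tested in all. The genes were those whose name in the deposited RefSeq tables begins with mRpL or mRpS followed by a digit, and where a gene had several transcripts the one with the highest mean over the arrays stood for it. Total RNA of ovaries had been hybridized to 6 Affymetrix tiling arrays, 3 in a group labelled uap56 and 3 in a group labelled vasa. UAP56, the product of Hel25E, is a helicase of mRNA splicing and export, and Vasa, the product of vas, is a germline helicase. All flies were raised at 25 °C on cornmeal food and had yeast paste as adults. The labels give no allele, strain, age or further genotype for either group, and do not say whether the replicates were separate dissections, so each p-value here reflects a spread among 3 arrays that may be technical. Wild-type ovaries were not analysed here: a gene higher in uap56 could equally be lower in vasa.

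Mitochondrial ribosomes translate the few mRNAs of the mitochondrial genome, which encode core subunits of the respiratory chain and of ATP synthase. Their RNAs come from the mitochondrial genome, while their proteins are encoded in the nucleus, made in the cytosol and imported. Egg chambers build up a large stock of mitochondria for the embryo, and nurse cells make much of the RNA for it. The small subunit binds and decodes the mRNA, and the large subunit joins amino acids and releases the new protein through its exit tunnel. The number in a name follows the bacterial ribosome up to L36 and S21, and higher numbers were given to proteins first described in mitochondria.

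The intensities are linear values that the authors summarised and normalized per transcript, with a floor of 1. They describe a gene across arrays, and since probes of different genes respond differently, they do not rank genes. The median over all 21158 transcript entries was between 156 and 173 on the 6 arrays. All 72 genes were above the floor on every array, and 69 of them had a mean above that of the median gene (129). As a check of the labels, vas stood at 2045, 1686 and 1364 on the uap56 arrays and at 267, 242 and 383 on the vasa arrays, which did not overlap (adjusted p = 0.00183, limma with an intensity trend). The arrays overlapped for Hel25E, with means of 1419 ± 326 for uap56 and 1610.3 ± 192 for vasa (SD, n = 3 each). The tissue label was compared with marker lists, and 11 germline and 13 follicle cell markers were all measured above the floor. The summed intensity of the germline markers, vas not among them, was 6669 to 9457 on the uap56 arrays and 9043 to 11726 on the vasa arrays, and none of the 11 passed the test (limma, 5 had an unadjusted p under 0.05, all toward vasa). That of the follicle cell markers was 59824 to 79477 and 61375 to 77674. The sums were 4478 to 7005 in uap56 and 4477 to 6396 in vasa for 6 muscle sheath markers, 354 to 520.3 and 428 to 715 for 5 fat body markers, 225 to 239 and 181 to 317 for 4 haemocyte markers and 327 to 433 and 318 to 499.9 for 4 neuron markers. The part of these cell types in the results below was not tested, and in ovary RNA fewer cells of a type and less RNA per cell cannot be told apart.

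Most genes of the large subunit had somewhat higher signals in uap56 than in vasa, while those of the small subunit lay around 0. Of the 46 large subunit genes, 30 were above 0, with a median log2 difference, uap56 minus vasa, of 0.38. For the 26 small subunit genes 14 were above 0 and the median was 0.05, and the median of all 13690 genes was 0.02. At an adjusted p of 0.05 (limma with an intensity trend), 2 members passed toward uap56, mRpL38 and mRpL53, and this share of 2.78% was near the 2.48% of all genes. Toward vasa 0 members passed, against 1.35% of all genes, and 4 had an unadjusted p under 0.05 (5.56%, against 7.38% of all genes). The fit without the trend and without the robust option of limma called 0 members in either direction, but only 2 of all 13690 genes (0.0146%). An unadjusted p under 0.05 toward uap56 was found for 22 members (30.6%), against 10.8% of all genes and 18.6% of the 6845 genes above the median intensity. These were 18 of the 46 large subunit genes and 4 of the 26 small subunit genes. The 3 arrays of uap56 were all above the 3 of vasa for 15 members (20.8%, against 13.5% of all genes and 20.8% of those above the median intensity). The 15 were 10 of the 46 large subunit genes (21.7%) and 5 of the 26 small subunit genes (19.2%), so by this measure the subunits were alike. All 3 arrays of uap56 were below those of vasa for 3 members (4.17%, against 10.0% of all genes). Beside genes above the median intensity, the share of unadjusted p-values under 0.05 toward uap56 was thus higher, the share of separated arrays the same, and the share of calls lower (2.78% against 4.81%). Toward vasa all these shares were lower than among those genes, at 5.56% against 11.1% with an unadjusted p under 0.05, 4.17% against 12.9% separated, and 0 calls against 2.43%. Single differences ran from -1.27 to 1.44, with quartiles of -0.13 and 0.57. The spread within groups was moderate, with a median coefficient of variation over the members of 19.8% in uap56 and 23.2% in vasa. The difference between the subunits itself was not tested.

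**Figure D1:**
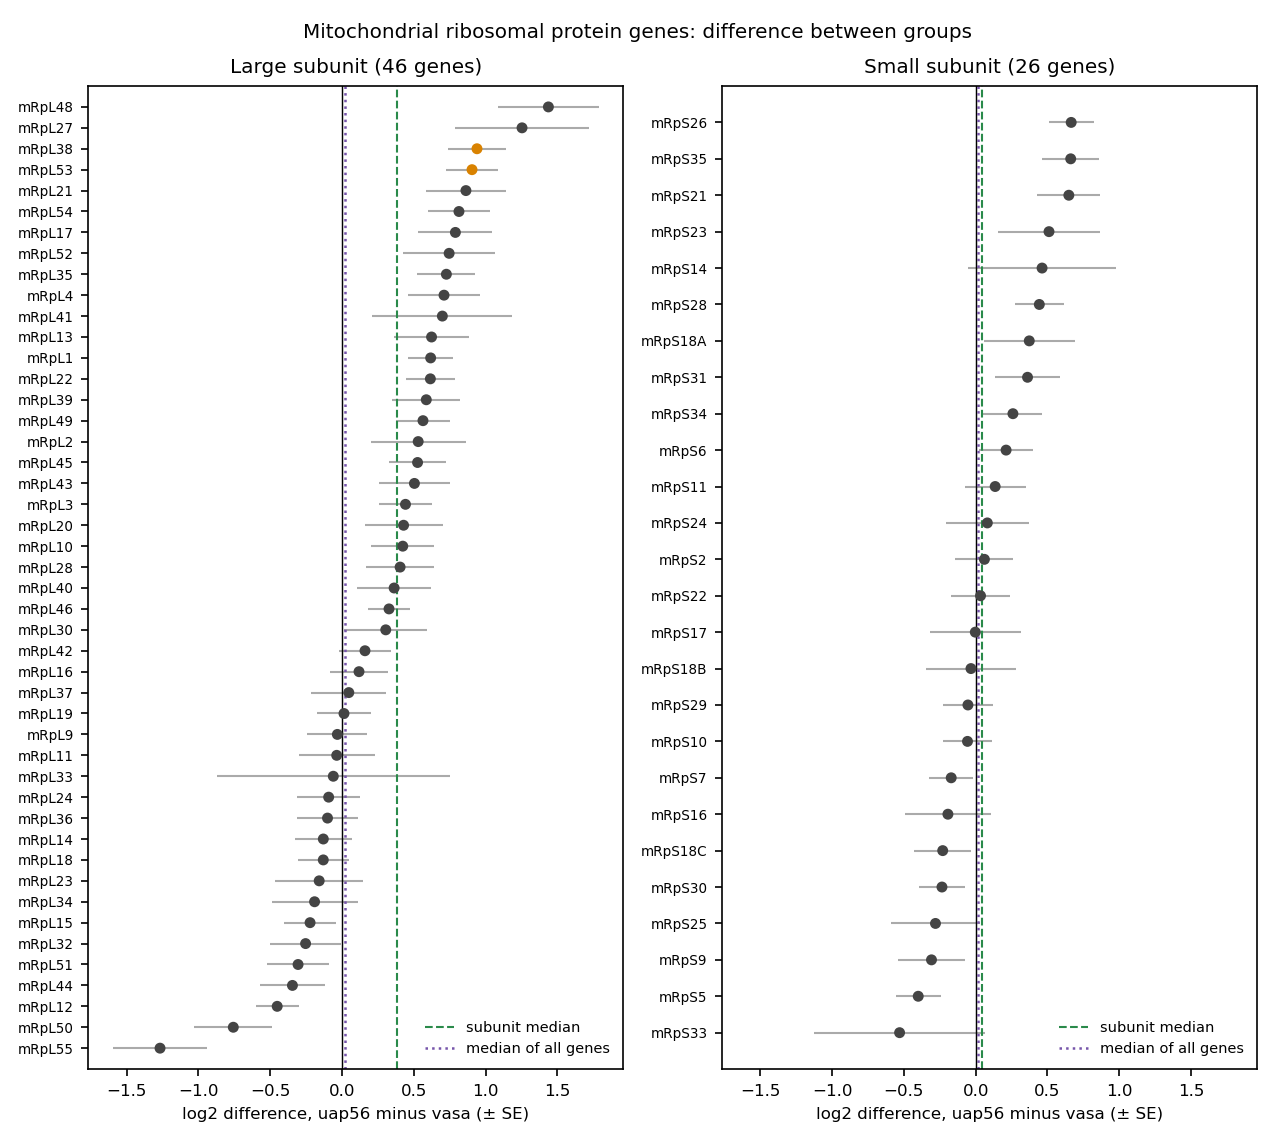
Log2 difference in intensity, uap56 minus vasa, with its SE for each of the 46 large subunit genes (left) and 26 small subunit genes (right), ordered by difference. Orange points passed the adjusted threshold (mRpL38 and mRpL53), the green dashed line is the median of the subunit (0.38 and 0.05), and the purple dotted line is the median of all genes (0.02).

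Of both calls, that of mRpL38 can be assigned to a single gene, whose product has a high number and is thus among those first described in mitochondria. Its signal was 698, 1035 and 860.2 on the uap56 arrays and 540.5, 449 and 362 on the vasa arrays. Every uap56 array was above every vasa array, and the means differed 1.92-fold. On the log2 scale this was 0.94 ± 0.20 (SE) and passed at an adjusted p of 0.0379 (limma with an intensity trend). Its gene lies on the X chromosome, and its span overlaps no other gene in Release 6 of the annotation. Leaving out 1 array in turn, the call was kept in 2 of the 6 fits, without uap56 replicate 1 and without vasa replicate 1, and lost without each of the other 4 arrays (adjusted p from 0.0296 to 0.140).

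The other call, mRpL53, on arm 2R, cannot be given to this gene alone. Its signal was 1923, 2679 and 2592 in uap56 and 1524, 1268 and 1050.4 in vasa, again without overlap. The log2 difference was 0.91 ± 0.18 (adjusted p = 0.0327), and it was kept and lost without the same arrays as mRpL38 (adjusted p from 0.0196 to 0.121). A transcript of CG33155 had the same value on all 6 arrays, and the annotation gives both genes the same span, so their signals cannot be told apart. The span also overlaps AGO1, an Argonaute gene of the microRNA pathway, whose difference was -0.29 (adjusted p = 0.394).

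Several further large subunit genes had arrays that did not overlap without passing the test. For mRpL48, of the high numbers, the values were 469.96, 1048 and 922 in uap56 and 441, 222 and 233 in vasa. Its log2 difference, 1.44 ± 0.35, was the largest of the 72 toward uap56 (adjusted p = 0.0642), and uap56 replicate 1 lay close to vasa replicate 1. The gene that overlaps it, frtz, had a difference of 0.27. Beside it stood mRpL1, whose product forms the mobile stalk near the exit site of the large subunit in bacteria, at 1061, 1392 and 1153 in uap56 and 836, 819 and 689 in vasa, a difference of 0.62 ± 0.16 (adjusted p = 0.0661). For mRpL54 the values were 775, 1169.8 and 1276 in uap56 and 641, 686 and 484 in vasa, with a difference of 0.81 ± 0.22 (adjusted p = 0.0763). A protein that lines the exit tunnel in bacteria is encoded by mRpL22, which stood at 823, 1224 and 1023 in uap56 and 638, 704 and 638 in vasa, a difference of 0.62 ± 0.17 (adjusted p = 0.0843). On the vasa arrays its values lay close together, at 659.8 ± 38.4 (SD, n = 3). The values of mRpL35, which has a bacterial counterpart, were 485, 379 and 546 in uap56 and 242, 339 and 271 in vasa, with a difference of 0.73 ± 0.20 (adjusted p = 0.0857). The gene that overlaps it, CG6028, had a like difference of 0.59 (adjusted p = 0.0978). The rest of the large subunit genes with arrays that separated toward uap56 were mRpL17 (0.79), mRpL49 (0.56) and mRpL46 (0.33), with adjusted p-values of 0.139, 0.152 and 0.271.

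A large mean difference did not always come with arrays that separated. For mRpL27, whose bacterial counterpart reaches toward the site of peptide bond formation, the values were 199.7, 202 and 557 in uap56 and 207, 82.2 and 97.3 in vasa. Only uap56 replicate 3 was above vasa replicate 1, and the difference of 1.25 ± 0.47 did not pass (adjusted p = 0.201); without that array it was 0.76. Weak signals were found for mRpL41, with 52.3, 169.6 and 133 in uap56 and 45.7, 107 and 56.2 in vasa, and of mRpL33, with 36.7, 109.996 and 131 in uap56 and 233, 101 and 25.6 in vasa. Both overlapped widely, with SEs of 0.49 and 0.81 on the log2 scale.

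Large subunit genes whose products sit at one place are given side by side, with no test between them. At the base of the stalk that recruits translation factors, which is not that of mRpL1, mRpL10 had 0.42 ± 0.22 and mRpL11 -0.04 ± 0.26. Neither passed the test (adjusted p = 0.357 and 0.966). Among the proteins around the exit of the tunnel in bacteria are L17, L22, L23 and L24, which are not all of them. Beside the 0.79 of mRpL17 and the 0.62 of mRpL22 stood -0.16 for mRpL23 and -0.09 for mRpL24 (adjusted p = 0.843 and 0.876). The remaining genes of the large subunit toward uap56 with an unadjusted p under 0.05 but overlapping arrays included mRpL45 (0.53), mRpL39 (0.59), mRpL13 (0.62) and mRpL52 (0.75), with adjusted p-values between 0.193 and 0.260. For mRpL34 (-0.19, adjusted p = 0.800) the overlapping gene CG8414 had a difference of -0.84 that did not pass either (adjusted p = 0.0794).

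In the opposite direction, mRpL55, another of the high numbers, had the largest difference. Its signal was 227, 93.7 and 205 in uap56 and 493, 339.6 and 362 in vasa. All vasa arrays were above all uap56 arrays, and the means gave a log2 difference of -1.27 ± 0.33 (adjusted p = 0.0703). It passed without uap56 replicate 1 and among genes above the 25th percentile of intensity. The product of mRpL12 forms the stalk that recruits translation factors, and its gene stood at 1493, 1894 and 1445 in uap56 and 2417, 2136 and 2023 in vasa. The difference of -0.45 ± 0.15, also without overlap, did not pass (adjusted p = 0.143), but it passed after quantile normalization. For mRpL50 the values were 287, 219 and 157 in uap56 and 472, 367 and 277 in vasa, which overlapped (difference -0.76, adjusted p = 0.174). Its span overlaps Neos, which was higher in uap56 than in vasa by a log2 difference of 0.89 (adjusted p = 0.0294, limma). The signals of this pair thus ran in opposite directions.

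**Figure D2:**
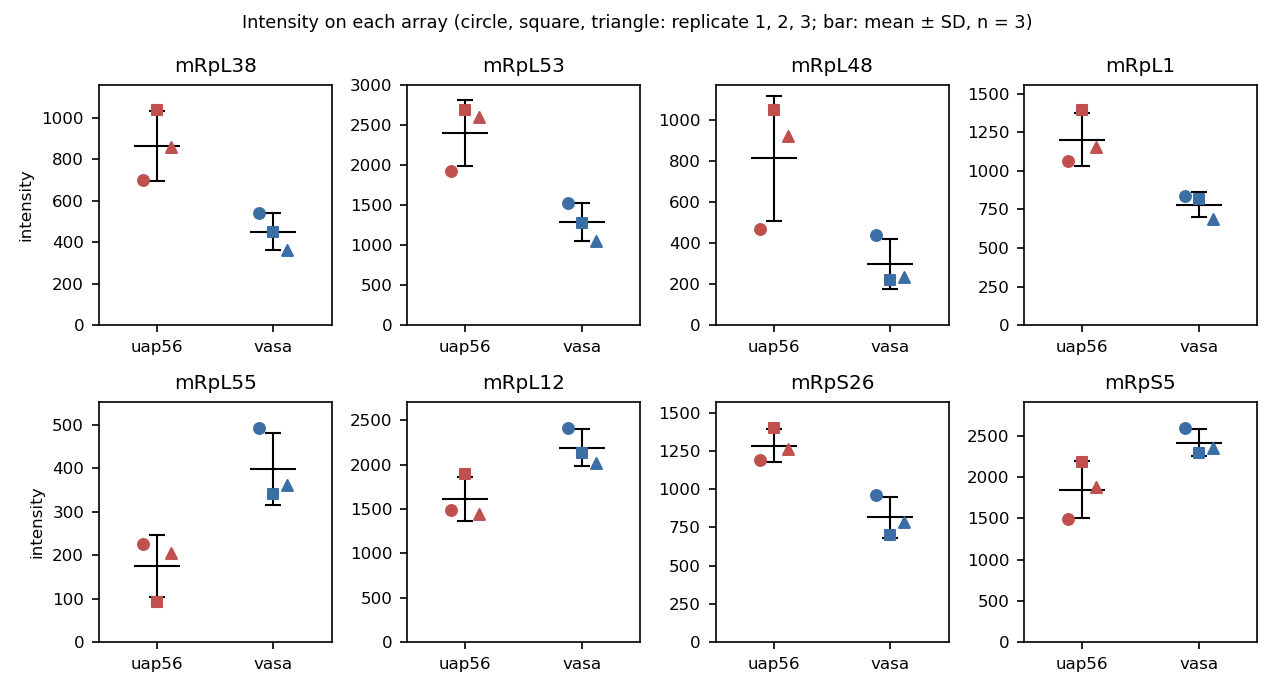
Intensity on each array for 8 of the named genes, with uap56 in red and vasa in blue, replicates 1 to 3 as circle, square and triangle, and the mean ± SD (n = 3) in black. The arrays of the groups do not overlap for any of the 8; mRpL55, mRpL12 and mRpS5 are higher in vasa and the other 5 higher in uap56.

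No gene of the small subunit passed the test in the fit reported here, and the nearest was mRpS26, which encodes a protein of the high numbers. It stood at 1191, 1402 and 1261 in uap56 and 959, 702 and 784 in vasa, a 1.59-fold difference without overlap. The log2 difference was 0.67 ± 0.16 (adjusted p = 0.0518). It passed after quantile normalization, after median centring, with a pseudocount of 16, among genes above the 25th percentile of intensity and without vasa replicate 1. The signal of mRpS35 was 943, 1059.9 and 1029 in uap56 and 852, 495 and 617 in vasa, with a difference of 0.66 ± 0.20 (adjusted p = 0.108). That of mRpS21, whose bacterial counterpart is a small protein near the place where mRNA leaves the subunit, was 777, 741 and 726 in uap56 and 685, 422 and 375 in vasa (difference 0.65, adjusted p = 0.153). In both genes the uap56 arrays lay close together, at 1011 ± 60.4 and 748 ± 26.0 (SD, n = 3), and vasa replicate 1 was nearer to them than to the other vasa arrays. The arrays also separated toward uap56 for mRpS28 (453 ± 41.9 in uap56 and 334 ± 43.5 in vasa, difference 0.44) and for mRpS6 (198 ± 8.84 and 171 ± 2.02, difference 0.21), with adjusted p-values of 0.205 and 0.616.

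Toward vasa the small subunit gene with arrays that separated was mRpS5, whose product lines the channel through which mRNA enters. Its signal was 1493, 2179 and 1880.2 in uap56 and 2601, 2295 and 2357 in vasa, a difference of -0.40 ± 0.16 (adjusted p = 0.221). The gene had 4 transcript entries, and all of them had a difference below 0, from -0.39 to -0.53. A value of 1030.1 ± 119.8 in uap56 and 1216 ± 183 in vasa was found for mRpS30 (difference -0.24, adjusted p = 0.494). The remaining named genes overlapped between the groups, with differences of 0.36 for mRpS31, 0.51 for mRpS23 and -0.53 for mRpS33, whose weak signal of 91.4 ± 77.3 in uap56 and 119 ± 72.9 in vasa had an SE of 0.59. The 3 genes of the S18 family had differences of 0.37 ± 0.32 for mRpS18A, -0.03 ± 0.31 for mRpS18B and -0.23 ± 0.20 for mRpS18C, none past the test (adjusted p = 0.601, 0.975 and 0.603).

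Other small subunit genes had differences of either sign, some with wide errors. In the head of the subunit, whose proteins hold the tRNAs in bacteria, mRpS7, mRpS9 and mRpS14 had -0.17, -0.31 and 0.46 with SEs of 0.15, 0.24 and 0.52. The gene of the GTP-binding protein DAP3, mRpS29, stood at -0.05 ± 0.17, and mRpS11, mRpS16 and mRpS17, which have bacterial counterparts in the body or platform, at 0.14, -0.19 and -0.00293. All of these overlapped between the groups, and their adjusted p-values lay between 0.548 and 0.998.

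The subunits were described further by features that the choice of genes had not used. The split by protein number was made after the values were seen. Among the large subunit genes, the 18 with numbers above L36 had a median difference of 0.52, with 14 above 0, and the 28 with bacterial numbers had 0.21, with 16 above 0. Among the small subunit genes the 12 with numbers above S21 had 0.17 and the 14 with bacterial numbers -0.02. Both calls were of the high numbers, 2 of 30 genes (6.67%, against 2.48% of all genes toward uap56), and that of mRpL53 cannot be given to it alone. In human mitochondrial ribosomes the counterparts of mRpS30 and mRpS18A sit in the large subunit, and with both counted there the medians were 0.37 and 0.05. By chromosome arm the medians were 0.41 for 12 genes on 2L, 0.30 for 12 on 2R, 0.33 for 17 on 3L, 0.02 for 20 on 3R and 0.31 for 11 on X. None of these splits was tested.

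Of the 72 genes, 42 (58.3%) overlapped the span of another gene in Release 6, against 47.3% of the 13200 tested genes with a position. The labelling of double-stranded DNA does not keep the strand, so where transcripts of such a pair share sequence their signals cannot be told apart. The median difference was 0.14 for the 42 overlapping genes and 0.27 for the other 30. Within the large subunit it was 0.31 for 27 overlapping and 0.43 for 19 free genes, and within the small subunit 0.06 for 15 and -0.00293 for 11. Of the 45 pairs of a member and a measured partner, 26 had differences of the same sign. Apart from mRpL53 with CG33155, identical values on all arrays were found for a weak transcript of mRpS10 and one of CG34316, and that transcript did not stand for mRpS10.

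The members varied together from array to array within a group. In vasa replicate 1 they were high, and 62 of 72 members (86.1%) had their highest vasa value there, against 40.3% of all genes. Their median deviation from the mean of the group was 0.32 on the log2 scale in vasa replicate 1, -0.08 in replicate 2 and -0.25 in replicate 3, and over all genes it was 0.04, 0.01 and -0.02. Among the uap56 arrays replicate 2 was the high one for 40 members, with a median deviation of 0.17, beside -0.12 and -0.05 for replicates 1 and 3. Of all genes 39.1% were highest in uap56 replicate 2, and their deviations were 0.05, 0.07 and -0.08 in replicates 1 to 3. Both subunits showed this, with 0.32 for the large and 0.29 for the small subunit in vasa replicate 1. It was not particular to the mitochondrial ribosome, since vasa replicate 1 was also the highest vasa array for 88 of 92 cytosolic ribosomal protein genes and for 61 of 67 genes of the respiratory chain and ATP synthase. What sets this array apart was not tested. The median intensity of the members was 486, 602 and 491 on the uap56 arrays and 574, 416 and 383 on the vasa arrays, so vasa replicate 1 lay within the range of uap56.

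**Figure D3:**
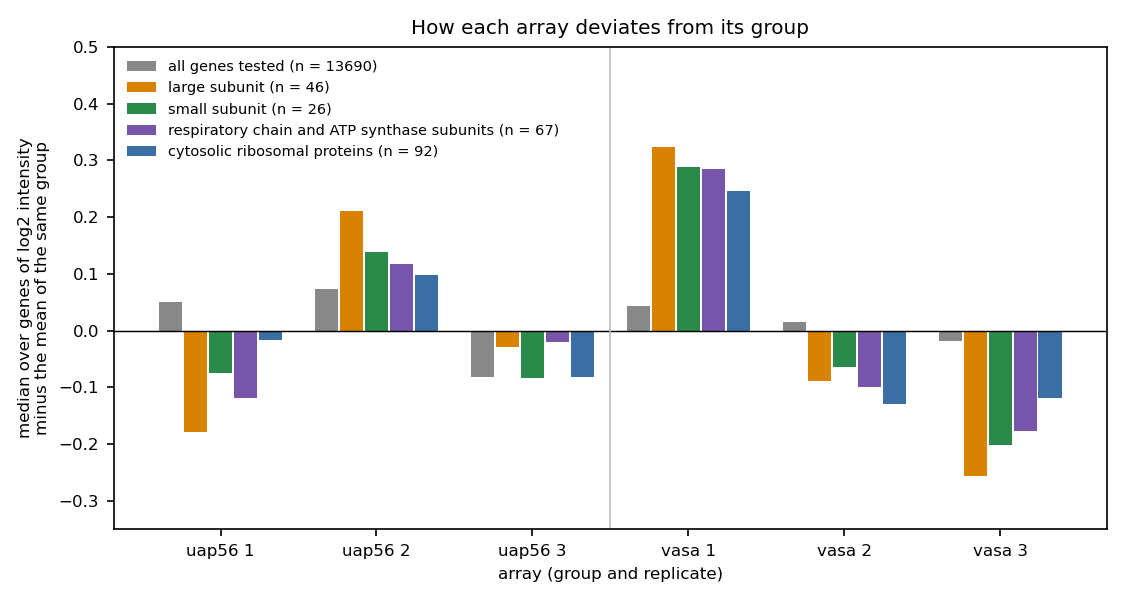
Median over genes of the log2 intensity on each array minus the mean of the same group, for all genes and 4 gene sets. In vasa replicate 1 both subunits, the respiratory chain and the cytosolic ribosomal proteins lie between 0.25 and 0.32 above their group means, while all genes lie at 0.04.

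The results were also computed with each array left out. Without vasa replicate 1, where most members had their highest vasa value, uap56 minus vasa rises by construction. The median difference was then 0.57 for the large and 0.21 for the small subunit. Of all 13690 genes 272 passed toward uap56, and 2.73% passed counting both directions. Among the members 7 passed toward uap56 (9.72%). These were mRpL21, mRpL38, mRpL48, mRpL53, mRpS21, mRpS26 and mRpS35. Without uap56 replicate 1, 5 members passed toward uap56 (mRpL22, mRpL38, mRpL48, mRpL53 and mRpL54) and 1 toward vasa (mRpL55). Of all 13690 genes 307 then passed toward uap56 and 202 toward vasa, which was 3.72% in both directions. Leaving out vasa replicate 2 or 3, or uap56 replicate 2 or 3, gave 0 calls among the members, and 0.511 to 1.48% of all genes were then called. Over the 6 fits that left out 1 array the large subunit median stayed above that of all genes, at 0.21 to 0.57, while the small subunit median ran from -0.08 to 0.21.

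**Figure D4:**
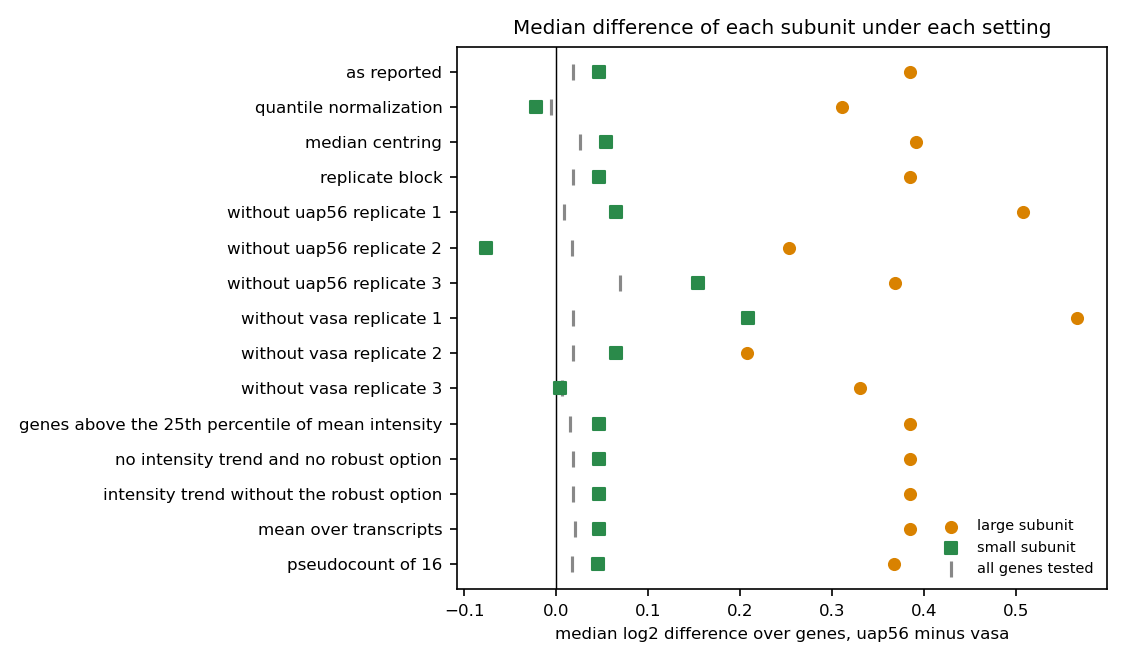
Median log2 difference, uap56 minus vasa, of the large subunit genes (orange), the small subunit genes (green) and all genes (grey) under each processing setting. The large subunit median is between 0.21 and 0.57 in all of them, and the small subunit median lies on either side of 0.

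Other genes of mitochondrial translation were listed to set the members beside their pathway. Some further ribosomal proteins of mitochondria have other names, and the list of them may not be complete. The difference was -0.36 for tko, the gene of mitochondrial protein S12, which takes part in decoding, -0.02 for bonsai, the S15 gene, and -0.26 for CRIF, whose human counterpart sits on the large subunit. None of them passed (adjusted p = 0.441, 0.966 and 0.649). Rlb1 (-0.39, adjusted p = 0.339) stood in this list through a mistaken identity, and the gene of L47, named Rlc1 in the tables and mRpL47 now, had 0.02 (adjusted p = 0.978). Of 12 translation factors 0 passed (limma, 2 with an unadjusted p under 0.05), with a median of -0.14. Elongation factor gene mEFTu1, whose product brings charged tRNAs to the ribosome, stood at 1112 ± 136 in uap56 and 1514 ± 184 in vasa (-0.45, adjusted p = 0.158), and the initiation factor gene mIF3 had 0.50 (adjusted p = 0.305). CG4679 and mRRF1, a ribosome recycling factor gene, had -0.41 and -0.45 (adjusted p = 0.240 and 0.414).

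Of 15 mitochondrial aminoacyl-tRNA synthetase genes, which charge the tRNAs for these ribosomes, 0 passed (limma, 1 with an unadjusted p under 0.05), with a median of 0.09. The nearest was LeuRS-m, with 0.57 (adjusted p = 0.0843), followed by SerRS-m (-0.44), ValRS-m (0.46) and CysRS-m (-0.59). Among 12 genes of mitochondrial DNA maintenance and transcription (median 0.17), bsf alone passed, toward vasa (8.33%, against 1.35% of all genes). Its signal was 386 ± 88.6 in uap56 and 732 ± 136 in vasa (log2 difference -0.93, adjusted p = 0.0422). Its product is a pentatricopeptide repeat protein that acts on mitochondrial RNA. The rRNA methyltransferase gene mtTFB1, TFAM, which packages the mitochondrial genome, and mTerf3 had 0.54, 0.40 and 0.81 and did not pass (adjusted p = 0.143, 0.180 and 0.260).

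The products of the mitochondrial ribosome join nuclear-encoded partners in the respiratory chain. Of 67 nuclear genes of the chain and ATP synthase (median 0.25, 47 above 0), 2 passed toward uap56 (2.99%, against 2.48% of all genes). These were ND-30 of complex I (0.76, adjusted p = 0.0431, limma) and SdhD of complex II (0.73, adjusted p = 0.0443). The 67 include the weak paralogs ND-51L1, ND-51L2, COX7AL2 and COX6AL2, with group means from 22.6 to 63.0. COX6B of complex IV was the 1 call toward vasa (1.49%, against 1.35% of all genes), at -0.76 (adjusted p = 0.0268, limma). ATPsynG, at 0.89, did not pass (adjusted p = 0.0619). Of 15 genes of protein import, by which the ribosomal proteins enter mitochondria, 2 passed toward vasa (13.3%, against 1.35% of all genes). They were Tom7 (-0.91, adjusted p = 0.0327) and Tim17b (-0.62, adjusted p = 0.0372). The median was -0.32, and Tom70 (0.77) and Tim23 (-0.54) did not pass. Among 92 cytosolic ribosomal protein genes (median 0.09, 60 above 0), RpS12 alone passed, toward uap56 (1.09%, against 2.48% of all genes). Its difference was 0.70 (adjusted p = 0.0447), and RpS9 (0.48), RpS16 (0.68) and RpL24 (0.71) were next to it. The 92 include genes with -like names, and RpL10Aa, RpS28-like and RpS28a had an array at the floor. Each call in these lists, and that of Neos, was lost without uap56 replicate 2 or 3 and without vasa replicate 2 or 3. The median of the mitochondrial large subunit genes was thus above those of these lists, and no test of that difference was made.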

How the data were processed

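Ovary RNA was measured on 6 tiling arrays in 2 groups of 3. Per the labels, the authors summarised and normalized the deposited values, 1 intensity per RefSeq transcript and array. For the method, the probes and the genome build the sources used here give nothing. Of 21158 entries 20765 were kept, since 393 were 0 throughout, and log2 was taken of the deposited intensity with no pseudocount. Entries were named through a RefSeq table on Release 6 (19234 by accession, 1314 by name, 610 as in the file), and each gene was represented by its brightest transcript. All 13690 genes were fitted with limma 3.58.1 in R 4.3.3 (lmFit, eBayes with an intensity trend and robust hyperparameters, two-sided, Benjamini-Hochberg over all genes, threshold 0.05); tables were made in Python 3.11.15. When tested on simulated arrays of 13690 genes, with changes placed above the median intensity, the trend fit recovered 66% of genes changed by a log2 of 1, 98% of those changed by 2, and made 5 false calls. Without the trend and the robust option these were 1%, 60% and 8. The simulated spread was set by intensity alone, as the trend fit assumes, so this comparison cannot decide which fit suits the real arrays.

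The members, lists and the choice of the trend fit were made with earlier results of these data known. Named are members past the threshold, the 8 with the smallest p and the 2 brightest and 2 weakest per subunit, and up to 4 genes per list; all other named genes, overlapping neighbours included, were named after their values were seen, and the split by protein number was made then too. No depth applies to arrays, and their number limits the precision. The alternatives were other normalizations, a replicate block, 1 array left out, a filter on weak genes, other variance priors, the mean over transcripts and a pseudocount of 16. Transposon tables were not used here.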

Additional observations from a re-analysis of the deposited data

How the results depend on the processing

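The large subunit median of 0.38 was 0.31 after quantile normalization, 0.39 after centring and 0.37 with a pseudocount of 16. The small subunit median of 0.05 turned to -0.02 after quantile normalization and to -0.00293 over genes without an overlapping gene. Leaving out 1 array gave 0.09 to 0.34 for all members, 0.21 to 0.57 for the large and -0.08 to 0.21 for the small subunit. The 2 calls toward uap56 and 0 toward vasa were less stable. Toward uap56 there were 0 with the replicate block, 0 without the intensity trend and the robust option, and 1 without the robust option alone. There were 3 after quantile normalization, 3 after centring (mRpS26 added in both) and 4 with the pseudocount (mRpL48 and mRpS26 added). There were 6 among genes above the 25th percentile, 1 among genes without an overlapping gene, and 0 to 7 when 1 array was left out. The share of all genes called, counting both directions, moved too. It was 3.83% in the fit reported here, 1.65% with the block, 0.0146% without trend and robust option and 3.04% without the latter alone. It was 5.26% after quantile normalization, 4.14% after centring, 4.24% with the pseudocount and 7.20% above the 25th percentile. Toward vasa there was 1 call after quantile normalization (mRpL12), 1 with the replicate block (mRpL55), 1 above the 25th percentile, and 0 to 1 without 1 array. The filter leaves fewer genes to test; the other causes were not tested.

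The replicate numbers share no source in the labels. Deviations of same-numbered arrays correlated at 2.88e-05, -0.000917 and -0.0281 over genes, and those of differently numbered arrays at -0.0217 to 0.0223. These values run over all genes, weak ones included, so they cannot decide whether the numbers pair the arrays. The block called 226 genes in place of 525, and mRpL38 and mRpL53 lost their calls in it. Some differences changed sign over the fits that left out 1 array, and those given here are not all. Among members the ranges were -0.92 to 0.67 for mRpL33, -0.20 to 0.0216 for mRpS10, -0.0774 to 0.29 for mRpS11 and -0.39 to 0.21 for mRpS18B. They were -0.34 to 0.21 for mRpL11, -0.41 to 0.13 for mRpL23, -0.26 to 0.12 for mRpL24 and -0.46 to 0.03 for mRpL34. For mRpS14 the range was -0.15 to 0.95, and mRpS16, mRpS17 and mRpS29 changed sign too. Outside the members it was -0.14 to 0.12 for bonsai, -0.31 to 0.00399 for Hel25E and -0.15 to 0.26 for mRpL47. Quantile normalization gave -0.0562 for mRpL47. Counted once per gene and alternative setting, members gained a call 20 times and lost one 13 times, changes given above included. All losses were of mRpL38 and mRpL53. Weak signals limit mRpL33, mRpL41 and mRpS33.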
